A study of Homo sapiens with 74 samples.

Results

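LINC symbols are the systematic names given to long intergenic non-coding RNA genes that have no functional name. Of the 1659 genes with such a symbol in the count tables, which list 28131 genes, 213 (12.8%) reached at least 1 CPM (counts per 1000000 counts of the library) on average in at least 1 of 5 groups of polyadenylated RNA libraries, and these 213 are described here. The members were thus chosen by these measured mean levels, so that a member's presence in the group where it is highest is no result. The closest LINC genes below the limit were LINC01914 at 0.984 CPM, LINC02405 at 0.964 CPM and LINC00870 at 0.962 CPM in their highest group. The closest above it were LINC02583, LINC02232 and LINC01597, each at 1.01 CPM. A further 852 LINC genes had 0 counts in every library. By the same level rule, 53.6% of the genes with any other name were included.

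The study examined how the DOT1L complex acts on the initiation of transcription in human cells. K562, an erythroleukaemia line from a patient with chronic myeloid leukaemia, was represented by wild type control cells (genotype wild type, 2 distinct libraries), by cells labelled DOT1L KO (genotype DOT1L-/-, 3 libraries) and by cells labelled ENL KO (genotype ENL-/-, 3 libraries). HEL, another erythroleukaemia line, was represented by control cells (2 libraries) and cells labelled DOT1L KD (DOT1L knockdown, 2 libraries). The labels do not say how the knockout or knockdown cells were made or whether a knockout line is 1 clone, and no treatment or time point is given. K562 control columns 2 and 3 held identical counts in every gene and were counted as 1 sample. The labels do not say whether replicates are separate cultures, so p-values measure the spread between these libraries, which may be technical. HEL libraries of a group differed by little more than counting error. Their chi-square per degree of freedom, 1 for counting error alone, was 1.33 and 1.48. Between distinct K562 libraries of a group it was 4.24 to 10.2. HEL p-values thus rest on a small spread between few libraries. The ENL KO labels carry no lane name, unlike those of the other K562 libraries, so a preparation difference and the genotype cannot be told apart.

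DOT1L is the enzyme that methylates lysine 79 of histone H3 along transcribed genes. ENL, encoded by MLLT1, is a YEATS-domain protein that binds acylated histones and is found with DOT1L and with elongation factors. Long non-coding RNAs are transcribed by RNA polymerase II and usually spliced and polyadenylated, are often more restricted to single cell types than messenger RNAs, and frequently start close to the start of another gene, in the opposite direction. Some act on their neighbour in cis, some host small nucleolar RNAs in their introns, and for most no function is known.

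Promoter sequences of 5 members that the results turn on are shown from RefSeq (GRCh38.p14), as the 300 bases from 250 before to 50 after the transcript start, 5′ to 3′ on the gene's strand. They were chosen because LINC00665 and LINC01534 went down in one K562 knockout and up in the other, LINC00261 and LINC01515 went almost to 0 in ENL KO cells, and LINC02573 rose in HEL DOT1L KD cells. Capitals mark every match, on either strand, to 7 short motifs. These are the TATA box (searched as TATAAA), a pair of motifs of GATA factors (searched as AGATAA and, separately, as TGATAA), the CCAAT box (its name being the letters searched), the GC box (searched as GGGCGG), a motif of ETS factors (searched as CCGGAAG) and the E-box (searched as CACGTG). Matches to different motifs may overlap.
LINC00665 (chr19:36331669-36331968, minus strand): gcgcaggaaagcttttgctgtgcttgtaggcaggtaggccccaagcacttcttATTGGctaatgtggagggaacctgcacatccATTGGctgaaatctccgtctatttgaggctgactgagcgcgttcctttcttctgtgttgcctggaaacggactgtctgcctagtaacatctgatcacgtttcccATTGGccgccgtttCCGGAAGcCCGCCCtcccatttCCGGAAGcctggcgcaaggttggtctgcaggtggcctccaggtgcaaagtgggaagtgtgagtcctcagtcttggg
LINC01534 (chr19:36687400-36687699, minus strand): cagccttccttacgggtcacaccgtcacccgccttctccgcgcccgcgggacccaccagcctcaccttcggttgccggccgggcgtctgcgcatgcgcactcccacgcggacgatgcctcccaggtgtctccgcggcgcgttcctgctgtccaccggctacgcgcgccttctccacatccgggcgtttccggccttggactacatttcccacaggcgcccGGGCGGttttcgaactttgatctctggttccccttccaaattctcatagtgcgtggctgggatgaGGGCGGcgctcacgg
LINC00261 (chr20:22578593-22578892, minus strand): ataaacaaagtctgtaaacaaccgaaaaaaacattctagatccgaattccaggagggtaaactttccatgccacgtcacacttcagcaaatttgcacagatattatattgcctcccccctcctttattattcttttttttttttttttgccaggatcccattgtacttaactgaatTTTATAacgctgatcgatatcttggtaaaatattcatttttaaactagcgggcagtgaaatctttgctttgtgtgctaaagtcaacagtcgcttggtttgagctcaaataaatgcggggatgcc
LINC01515 (chr10:65571175-65571474, plus strand): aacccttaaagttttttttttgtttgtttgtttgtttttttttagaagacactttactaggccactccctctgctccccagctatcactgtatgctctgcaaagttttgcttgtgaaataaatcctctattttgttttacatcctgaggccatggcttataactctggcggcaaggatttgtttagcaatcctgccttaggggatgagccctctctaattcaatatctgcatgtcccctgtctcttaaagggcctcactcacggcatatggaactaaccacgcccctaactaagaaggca
LINC02573 (chr21:20258636-20258935, minus strand): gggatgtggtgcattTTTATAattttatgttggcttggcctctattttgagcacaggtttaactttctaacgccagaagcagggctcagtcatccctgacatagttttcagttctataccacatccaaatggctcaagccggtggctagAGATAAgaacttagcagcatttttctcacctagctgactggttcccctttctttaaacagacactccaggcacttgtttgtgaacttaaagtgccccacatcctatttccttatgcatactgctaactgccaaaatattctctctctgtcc
The LINC00665 window holds CCGGAAG 2 times, CCAAT 3 times and GGGCGG 1 time. The LINC01534 window holds GGGCGG 2 times and also contains the start of ZNF567, which lies 163 bases away and runs in the opposite direction. Single TATAAA matches stand in the LINC00261 and LINC02573 windows, the second of which also has 1 AGATAA. None of the 7 motifs occurs in the LINC01515 window, which says only that these letters are not there.

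A promoter sequence was matched for 142 of the 213 members, 19 of them under another RefSeq symbol. For the 123 matched under their own symbol, the median GC content was 54.7%, against 47.0% for 987 LINC genes of the tables that did not reach the level limit and 58.3% for all 27305 promoters of the RefSeq table. GGGCGG was present in 40.7% of these member promoters, in 15.1% of the promoters of the less expressed LINC genes and in 44.6% of all promoters. CCGGAAG was present in 15.4%, 2.94% and 10.7% respectively. TATAAA differed less, at 14.6%, 15.7% and 12.0%, and AGATAA or TGATAA occurred in 24.4%, 25.7% and 16.6%. The GC content and the GC box share of expressed LINC promoters thus lay nearer to those of all promoters than to those of the less expressed LINC genes. Their GATA motif share took no clear side, as its motifs differed. AGATAA was present in 18.7% of the 123, in 16.5% of the less expressed LINC genes and in 10.5% of all promoters. TGATAA was present in 8.13% of the 123, in 12.5% of the less expressed LINC genes and in 7.76% of all promoters. The first share lay nearer to that of the less expressed LINC genes and the second nearer to that of all promoters. AGATAA or TGATAA occurred in 21.1% of all 142 matched members. These shares describe letters in fixed windows, and a match is not a bound site.

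The member genes were shorter and had fewer exons than other genes at the same level. Their median exonic length was 2093 bases in 4 exon blocks, against 3407 bases in 9 blocks, and 21 members had a single block. RefSeq classes 212 of the 213 as long non-coding RNA, and 22 were found there under a newer name, such as CHASERR for LINC01578, SNHG33 for LINC00888, SNHG30 for LINC02001, TILAM for LINC01969, ZNF567-DT for LINC01534 and BTG2-DT for LINC01136. By position, 22 members started within 5 kb of, and in the opposite direction to, a neighbouring gene, 16 overlapped a gene on the opposite strand, 6 overlapped a gene on the same strand, 2 were listed at several positions, and 167 met none of these definitions. The libraries are strand-marked by dUTP, but whether the counting used the strand is not given in the sources used here, so reads of the 22 overlapping members may include those of the overlapping gene. Of 7 LINC-named genes listed because they encode small proteins, 0 were present in the tables.

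Library totals ranged from 15404944 to 29236703 fragments in K562 and from 12151495 to 12811688 reads in HEL. The DOT1L transcript, the targeted gene, was at 253 and 268 CPM in K562 control, 179 to 191 CPM in DOT1L KO, 85.9 and 96.5 CPM in HEL control and 29.5 and 30.4 CPM in HEL DOT1L KD. MLLT1 was at 212 and 216 CPM in K562 control and 150 to 153 CPM in ENL KO. Gene-level counts do not show the edited exon, so the transcript levels of the knockouts check the labels only in part. All 11 erythroid marker genes were at 1 CPM or more in every group. Their summed level was 6910 to 7430 CPM in K562 control, 11100 to 11600 CPM in DOT1L KO and 8920 to 9060 CPM in ENL KO, and it was 7050 to 7120 CPM in HEL control and 9820 to 10500 CPM in DOT1L KD. The summed level of 5 monocytic markers was 33.2 to 36.3 CPM in K562 control, 302 to 328 CPM in DOT1L KO and 19.7 to 20.3 CPM in ENL KO. Nearly all of it was LYZ, the lysozyme gene, at 32.2 and 35.1 CPM in control and 301 to 327 CPM in DOT1L KO and the 1 gene of the 5 at 1 CPM or more; CD14 and MPO stayed under 1 CPM in every library, and ELANE was at 0 in both knockouts. The summed level of 7 megakaryocytic markers was 7.29 to 9.81 CPM in K562 control, 34.0 to 35.7 CPM in DOT1L KO and 28.9 to 36.0 CPM in ENL KO, with 2 of the 7 at 1 CPM in each K562 group, GP1BA being at 0 in all 3. In HEL it was 2580 to 2640 CPM in control and 2100 to 2110 CPM in DOT1L KD, with 7 of 7 at 1 CPM. For 3 fibroblast markers the sum was 2.01 to 2.03 CPM in K562 control, 13.0 to 17.0 CPM in DOT1L KO, 0.567 to 0.953 CPM in ENL KO and at most 0.0805 CPM in HEL, and LUM was at 0 in K562 control and DOT1L KO. The part of these marker shifts in the LINC changes was not tested. In bulk RNA, fewer cells of a type and less RNA per cell cannot be told apart.

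The expressed LINC RNAs were low, and fewer of them than of other genes reached the limit in both lines. The median member was at 1.91 CPM in K562 control and 0.864 CPM in HEL control, whereas the median of other genes meeting the level rule was 23.8 and 22.3 CPM. The highest group mean stayed under 2 CPM for 61 members (28.6%), reached 10 CPM for 56 and reached 100 CPM for 2. At 1 CPM, 80 members (37.6%) were present in both lines, 93 in K562 alone and 40 in HEL alone, whereas 78.4% of the 14182 other genes meeting the level rule reached it in both. Of those other genes, 12.9% reached it in K562 alone and 8.76% in HEL alone. More of the groups that could admit a gene were of K562 than of HEL. The gap was smaller at low levels: among genes under 10 CPM in their highest group, 26.8% of 157 members and 36.7% of 3527 other genes were at 1 CPM in both lines. K562 alone held 51.6% of these members and 38.9% of these other genes, and HEL alone 21.7% and 24.4%. A member counted in 1 line can lie just under the limit in the other, as LINC00680 did at 0.975 CPM in HEL DOT1L KD. In all, 36 members had 0 counts in all 4 HEL libraries while 8 had 0 counts in all 8 K562 libraries. The HEL libraries were fewer and had lower totals, and the matching counts of other genes are not given here. A count of 0 allows up to 3 counts per library, or 0.234 to 0.247 CPM in HEL and 0.103 to 0.195 CPM in K562, as far as counting error goes. K562 was counted in fragments and HEL in reads, in separate tables, so levels across the lines are set side by side without a test. By group, 143 members were at 1 CPM in K562 control, 160 in DOT1L KO, 133 in ENL KO, 103 in HEL control and 112 in HEL DOT1L KD. By the level rule itself, 18 members entered through the DOT1L KO group alone, 3 through K562 control, 1 through ENL KO, 7 through HEL control and 6 through HEL DOT1L KD. Changes of such members against that group are given as descriptions, without a test.

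**Figure D1:**
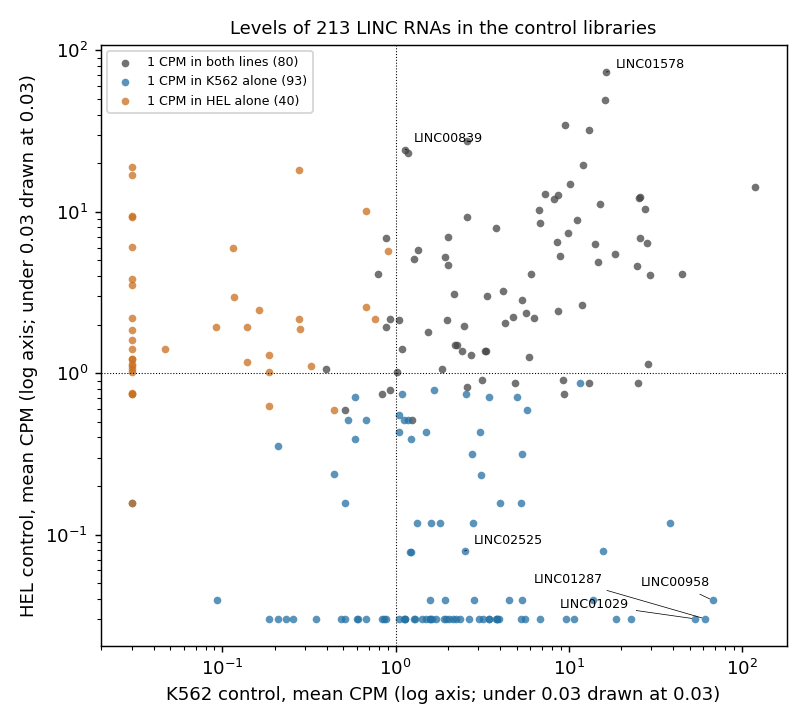
Mean CPM of the 213 LINC RNAs in K562 control (horizontal, log axis, 2 libraries) and HEL control (vertical, log axis, 2 libraries), with dotted lines at 1 CPM and colours for the lines in which any group reached 1 CPM. A column of members at the left edge, present in HEL, and a row at the bottom edge, present in K562, LINC01287 and LINC01029 among them, hold values under 0.03 CPM, and LINC01578 is highest in HEL.

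Levels of different genes are compared per kilobase of exon. By the mean over the 5 groups the 3 highest members were LINC01287, LINC00958 and LINC01029, all K562 RNAs at no more than 0.0823 CPM in any HEL library. LINC01287, of chromosome 7 (153399919 to 153412234, minus strand), was at 61.1 CPM per kb in K562 control, 180.5 in DOT1L KO and 42.6 in ENL KO, and at 0 in both HEL groups. LINC00958 was at 43.7, 37.2 and 61.8 CPM per kb in the same K562 groups, and LINC01029 at 41.1, 23.9 and 41.0. LINC01578, also called CHASERR, a non-coding RNA known to repress its neighbour CHD2 in cis, was at 8.12, 10.7 and 6.74 CPM per kb in K562 and at 36.1 and 32.8 in HEL control and DOT1L KD. The snoRNA host LINC02001 was at 30.2 CPM per kb in K562 control and 5.61 in HEL control. LINC00339, LINC00467 and LINC01003 completed the 8 highest, with means over the 5 groups of 13.9, 12.3 and 11.0 CPM per kb. In library counts, LINC01287 stood at 60.8 and 62.4 CPM in K562 control, 178, 180 and 188 CPM in DOT1L KO and 40.3, 42.1 and 46.4 CPM in ENL KO. These groups did not overlap, DOT1L KO being highest and ENL KO lowest. The log2 fold change against control was 1.52 ± 0.057 (SE) in DOT1L KO (edgeR adjusted p = 4.60e-10) and -0.52 ± 0.064 in ENL KO (edgeR adjusted p = 2.26e-05).

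In K562 cells without DOT1L, more LINC RNAs rose than fell. The summed level of the members was 1290 and 1284 CPM in control, and 1582, 1536 and 1664 CPM in DOT1L KO, a sum that includes the members admitted by either group alone. A large share of the gain came from LINC01287 and LINC01000, and without these 2 the sum was 1108 and 1103 CPM in control and 1226, 1200.2 and 1268 CPM in DOT1L KO. Among the 131 members at 1 CPM in both groups, whose inclusion did not depend on either group alone, 65 passed the test (adjusted p under 0.05 in edgeR's quasi-likelihood fit across all genes), 48 of them higher and 17 lower, with a median log2 fold change of 0.13. Of all 182 members tested, 105 passed (57.7%), 77 higher and 28 lower; 51.1% of all 14301 genes tested passed, 26.9% higher and 24.2% lower, and the median log2 fold change of all genes was 0.011. Members that reached the limit in 1 of the 2 groups alone had to differ, and they add 24 of the 77 increases and 11 of the 28 decreases. The upward lean was also present in other lowly expressed genes. Between 1 and 10 CPM, 45 of 117 tested members rose and 16 fell, while 1211 of 3332 other genes rose and 597 fell. At 10 CPM or more, 14 of 34 members rose and 8 fell, while 1988 of 9134 other genes rose and 2697 fell. Changes of at least 1 on the log2 scale that passed numbered 41 up and 11 down among the members. Among all genes 11.7% were up and 4.09% down by this measure. Members at 1 CPM in both groups gave 16 of the 41 and 2 of the 11. Members that reached the limit in 1 of the groups alone gave 21 and 9.

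**Figure D2:**
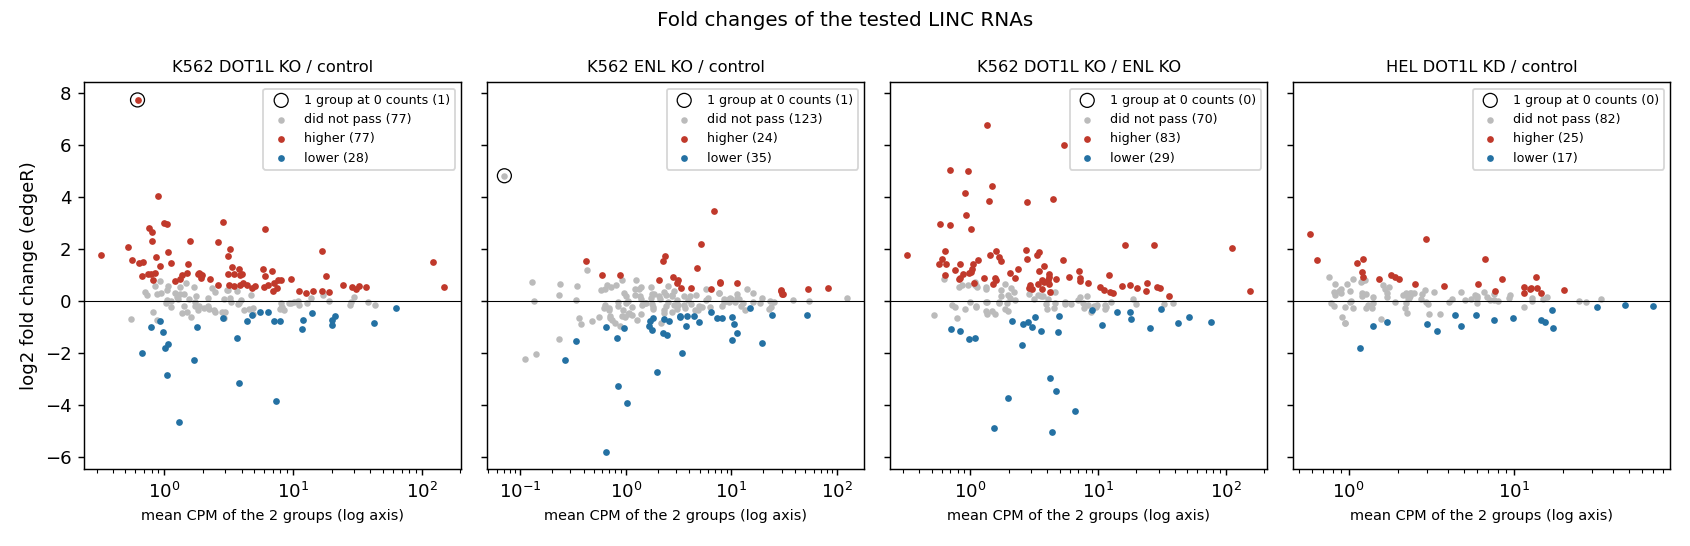
Log2 fold change (vertical) against mean CPM of both groups (horizontal, log axis) for each tested LINC RNA in 4 comparisons, coloured by whether it passed the test as higher (red) or lower (blue) in the first group, and grey otherwise. Higher calls outnumber lower calls in the DOT1L KO panels (77 against 28, and 83 against 29), and lower calls outnumber higher ones in the ENL KO panel (35 against 24); an open circle marks LINC00881, whose control libraries have 0 counts and whose plotted fold is therefore not a bound.

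Among the largest decreases in DOT1L KO cells, 3 RNAs came close to loss. LINC02525, on chromosome 6 (3182818 to 3195767, minus strand), was at 2.45 and 2.57 CPM in control, 0.0462, 0.103 and 0.147 CPM in DOT1L KO and 2.84, 2.57 and 3.57 CPM in ENL KO. Only the DOT1L KO libraries were low, and they did not overlap the others (log2 fold change -4.64 ± 0.33, edgeR adjusted p = 1.88e-07). LINC00659, on chromosome 20 (62774121 to 62776856, minus strand), was at 13.6 and 14.0 CPM in control, 1.20, 0.958 and 0.784 CPM in DOT1L KO and 7.14, 6.77 and 8.50 CPM in ENL KO. It was lower in both knockouts, by -3.84 ± 0.17 on the log2 scale in DOT1L KO (edgeR adjusted p = 5.48e-10) and by -0.88 ± 0.13 in ENL KO (edgeR adjusted p = 9.29e-05). LINC01667, on chromosome 21, was at 7.80 and 5.89 CPM in control and 0.969, 0.821 and 0.588 CPM in DOT1L KO, a log2 fold change of -3.13 ± 0.20. The other large decreases were LINC00665 (-2.82), LINC01160 (-2.24) and LINC01534 (-1.98). In HEL control libraries LINC02525, LINC00659 and LINC01667 were at no more than 0.158 CPM, so the effect of the knockdown on them was not measurable there. Each of the 6 decreases kept its direction and its call when any 1 library was left out.

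The 6 largest increases in DOT1L KO cells, LINC00881, LINC02141, LINC02575, LINC01969, LINC00540 and LINC00880, were all admitted by the DOT1L KO group alone. That they are high there follows from the rule, and their values are a description. LINC00881, an RNA described in heart muscle, had 0 counts in both control libraries and 0.923, 1.44 and 1.37 CPM in DOT1L KO, at least 18.1-fold higher against a floor of 3 counts over the control group. LINC00880 overlaps it on the opposite strand of chromosome 3, and it was at 0.185 and 0.187 CPM in control and 1.66, 1.47 and 0.931 CPM in DOT1L KO. Because the use of strand in counting is not known, these 2 differences may share reads. LINC02575 was at 0.461 and 0.747 CPM in control, 5.17, 5.37 and 5.00 CPM in DOT1L KO and 0.425, 0.191 and 0.454 CPM in ENL KO. LINC02141, LINC01969 and LINC00540 were each at no more than 0.234 CPM in every control library and at 1.18 CPM or more in every DOT1L KO library.

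In K562 cells without ENL, LINC RNAs changed in both directions. Of the 127 members at 1 CPM in both ENL KO and control, 47 passed the test, 21 higher and 26 lower. Of the 182 tested, 59 passed (32.4%), 24 higher and 35 lower; 41.0% of all genes passed, 18.8% higher and 22.2% lower. At 1 to 10 CPM, 33.3% of the tested members and 43.8% of other genes passed, and at 10 CPM or more 44.1% and 43.5%. Among changes of at least 1 on the log2 scale that passed, 7 members were up and 16 down, next to 2.89% and 8.11% of all genes. Members at 1 CPM in both groups gave 5 of the 7 and 7 of the 16. Another 6 of the decreases were in members that reached the limit in control alone. The summed member level was 1269, 1285 and 1335 CPM, which overlapped the control libraries.

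Several RNAs were nearly lost in ENL KO cells. LINC01515, on chromosome 10 (65571425 to 65766541, plus strand), was at 1.43 and 1.12 CPM in control and 2.26, 1.95 and 3.87 CPM in DOT1L KO, while the ENL KO libraries held 0, 0 and 0.0649 CPM. It fell in the test (edgeR adjusted p = 7.95e-05), with a fitted log2 fold change of -5.78 that rests on 1 count in ENL KO against 55 in control. The ratio of these counts over the totals was 0.0136 (95% exact interval 0.000339 to 0.0791, for counting error only). LINC00960, on chromosome 3, went from 1.71 and 2.15 CPM to 0.0473, 0.0477 and 0.325 CPM (log2 fold change -3.91 ± 0.48). LINC00261, on chromosome 20 (22560554 to 22578642, minus strand), is a non-coding RNA of definitive endoderm whose start lies 6821 bases from that of FOXA2. It was at 1.38 and 1.68 CPM in control, 10.9, 11.5 and 9.80 CPM in DOT1L KO and 0.189, 0.191 and 0.0649 CPM in ENL KO. The 3 groups did not overlap, with DOT1L KO highest and ENL KO lowest. Its log2 fold change was 2.76 ± 0.24 in DOT1L KO (edgeR adjusted p = 2.50e-08) and -3.24 ± 0.37 in ENL KO (edgeR adjusted p = 1.21e-05). LINC00668 (-2.71), LINC00654 (-2.26) and LINC00942 (-1.98) were the other large decreases. LINC00668, like LINC00261, passed as higher in DOT1L KO, at 1.23, and LINC00654 was admitted by DOT1L KO alone.

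The largest increase in ENL KO cells was LINC00839, on chromosome 10 (42475491 to 42495337, plus strand). It was at 1.25 and 1.03 CPM in control, 13.4, 11.4 and 12.7 CPM in ENL KO and 0.923, 0.479 and 0.735 CPM in DOT1L KO. The ENL KO libraries stood above all other K562 libraries (log2 fold change 3.46 ± 0.20, edgeR adjusted p = 1.40e-08), and the 4 HEL libraries held 24.0 to 26.2 CPM. LINC00665, on chromosome 19 (36313061 to 36331718, minus strand), was at 2.21 and 1.50 CPM in control, 7.85, 8.29 and 9.48 CPM in ENL KO and 0.231, 0.308 and 0.245 CPM in DOT1L KO. LINC01534, which also lies on chromosome 19 (36685439 to 36687449, minus strand), was at 1.15 and 1.03 CPM in control, 3.55, 2.86 and 4.54 CPM in ENL KO and 0.415, 0.342 and 0.0490 CPM in DOT1L KO. For both, control lay between the knockouts without overlap. The log2 fold changes in ENL KO were 2.20 ± 0.19 and 1.73 ± 0.32 (edgeR adjusted p = 6.72e-07 and 0.000698). LINC00520 rose by 1.56 and LINC02323 by 1.27. LINC01136 passed at 1.53 ± 0.55 (edgeR adjusted p = 0.0382), but this call was lost without control library 1 (0.90), and also without DOT1L KO library 3 or ENL KO library 1 or 3; it was 2.67 without control library 2.

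**Figure D3:**
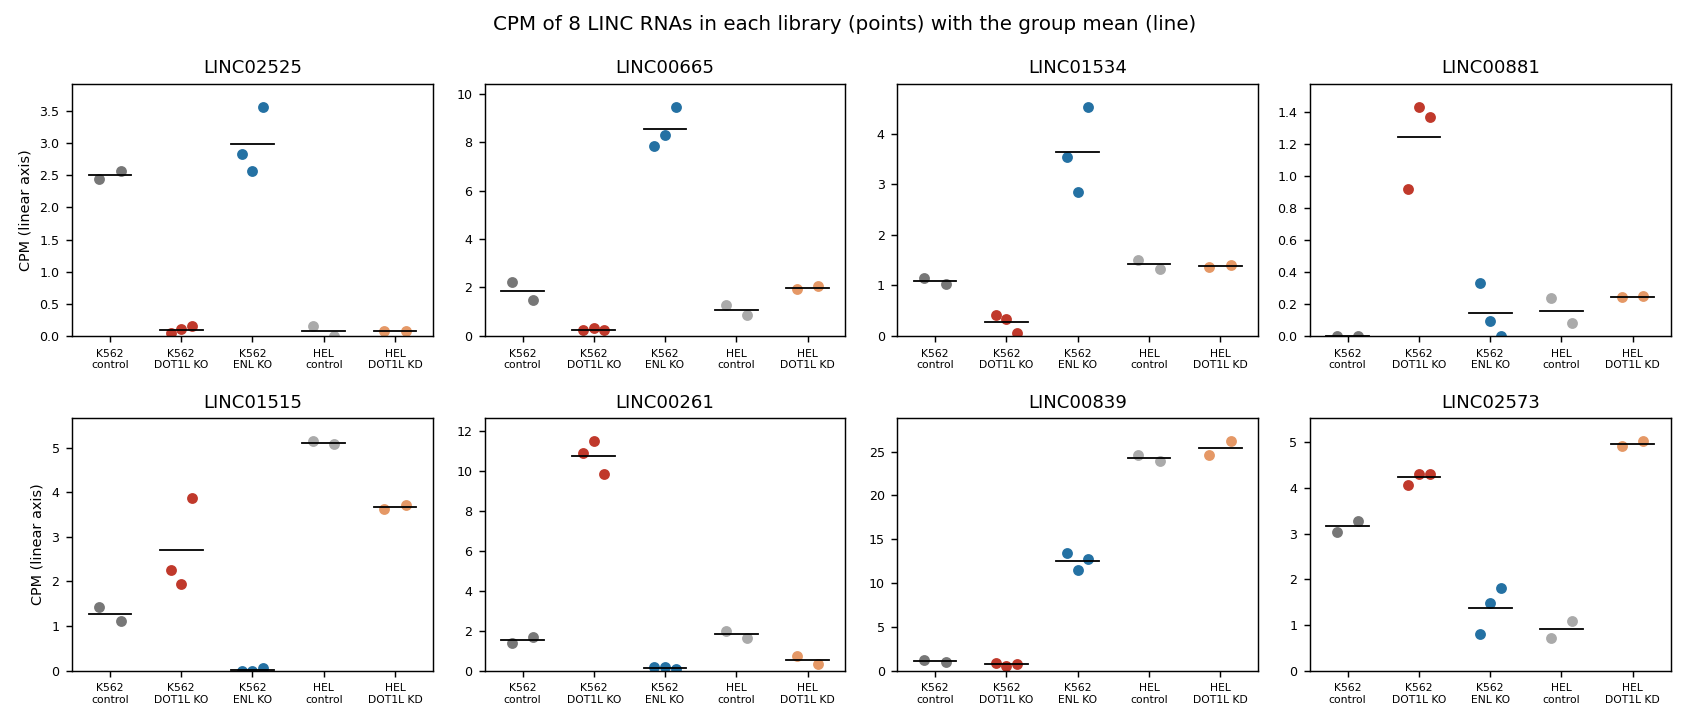
CPM in each library (points; linear axes from 0) with the group mean (line) for 8 LINC RNAs in the 5 groups. LINC00665, LINC01534 and LINC00839 are highest among K562 groups in ENL KO, LINC00261 is highest in DOT1L KO at 9.80 to 11.5 CPM, LINC02525 is low in DOT1L KO alone among K562 groups, and LINC02573 is higher in HEL DOT1L KD than in HEL control.

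DOT1L KO and ENL KO cells were also compared directly, and most LINC RNAs that differed were higher in DOT1L KO. The control libraries that both comparisons above share are not in the groups compared, but they enter the fit behind these calls. Of 123 members at 1 CPM in both knockouts, 67 passed, 48 higher in DOT1L KO and 19 higher in ENL KO. Of the 182 tested, 112 passed (61.5%), 83 higher and 29 lower in DOT1L KO; 60.2% of all genes passed, 31.8% higher and 28.3% lower. Differences of at least 1 on the log2 scale that passed numbered 45 and 14, next to 15.4% and 3.82% of all genes. Members at 1 CPM in both knockouts gave 14 and 4 of these. Members that reached the limit in DOT1L KO alone gave 26 of the 45, and those in ENL KO alone gave 9 of the 14. Their direction followed from the level rule. LINC01515 (6.78), LINC00261 (6.00), LINC00880 (5.03), LINC00540 (4.99), LINC00960 (4.41) and LINC00654 (4.16) were the most DOT1L KO-high by fitted log2 fold change, LINC00880, LINC00540 and LINC00654 having been admitted by DOT1L KO alone. Of these, LINC01515, LINC00880 and LINC00540 had 1, 2 and 3 counts in all of ENL KO, and their count ratios were 149 (95% exact interval 26.5 to 5930), 39.5 (10.7 to 331) and 36.9 (12.3 to 181). LINC00665 (-5.02), LINC02525 (-4.88), LINC00839 (-4.22), LINC01534 (-3.71), LINC01667 (-3.46) and LINC00659 (-2.96) were the most ENL KO-high. Against the control they share, 38 members passed in both knockouts. These were 9 higher in both, 9 lower in both, 13 higher in DOT1L KO and lower in ENL KO, and 7 the other way. The matching shares of all genes were not computed, so these counts do not show whether LINC RNAs differ from other genes in this.

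In HEL cells, LINC RNAs changed in both directions after DOT1L knockdown, mostly by less than 1 on the log2 scale. Of 95 members at 1 CPM in both HEL groups, 33 passed, 18 higher and 15 lower, with a median log2 fold change of 0.12. Of the 124 tested, 42 passed (33.9%), 25 higher and 17 lower; 55.0% of all 12635 genes passed, 27.0% higher and 28.0% lower. Over the tested members, the median count per library was 30 to 36 in HEL and 36 to 83 in K562. Among genes at 1 to 10 CPM, 29.4% of members and 36.1% of other genes passed, and at 10 CPM or more 65.2% and 63.0%. Changes of at least 1 on the log2 scale that passed numbered 8 up and 3 down, next to 3.37% and 2.47% of all genes. Members at 1 CPM in both HEL groups gave 2 up and 2 down. Members that reached the limit in DOT1L KD alone gave 5 of the 8 increases. DESeq2 called 19 of the 124, 11 higher and 8 lower.

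LINC02573, on chromosome 21 (20256862 to 20258685, minus strand), rose in HEL, and was at 0.712 and 1.09 CPM in control and 4.91 and 5.02 CPM in DOT1L KD. The groups did not overlap (log2 fold change 2.41 ± 0.29, edgeR adjusted p = 5.16e-10). In K562 it was at 3.05 and 3.27 CPM in control and 4.06, 4.31 and 4.31 CPM in DOT1L KO, a difference that did not pass (0.38, edgeR adjusted p = 0.141). LINC01215, which starts 33976 bases from CD47, rose from 3.24 and 3.20 CPM to 11.1 and 9.14 CPM (1.61 ± 0.18), and it also rose in K562 DOT1L KO (1.15 ± 0.14). LINC01410 (1.61) and LINC00680 (1.57) passed as well, the latter not with DESeq2. LINC00920 and LINC01814 were admitted by HEL DOT1L KD alone, with fitted differences of 2.58 and 1.45, the first resting on 0 and 0.312 CPM in control and at 1.63 without control library 1.

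The decreases in HEL were led by LINC00261, at 1.98 and 1.64 CPM in control and 0.724 and 0.329 CPM in DOT1L KD (log2 fold change -1.79 ± 0.42, edgeR adjusted p = 0.0003). LINC01094, on chromosome 4 (78645994 to 78684501, plus strand), fell from 23.1 and 23.0 CPM to 11.4 and 11.7 CPM (-1.03 ± 0.11, edgeR adjusted p = 8.39e-12). In K562 DOT1L KO it rose, from 1.06 and 1.31 CPM to 2.40, 2.74 and 2.55 CPM (1.07 ± 0.24). LINC00173, described in granulocytes, fell from 4.27 and 5.07 CPM to 2.25 and 2.06 CPM (-1.15 ± 0.24), and LINC02604 fell by 0.96. LINC01447, admitted by HEL control alone, was at -0.95. LINC00987 passed at -0.87, and without DOT1L KD library 2 it was -0.49 and no longer passed, nor did it with DESeq2.

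Of the 94 members tested in all 3 comparisons with a control, 8 passed in each (8.51%; 15.4% of all genes), and 2 of these had the same direction throughout (2.13%; 6.23% of all genes). The 2 were LINC00680 and LINC00977, both higher. LINC00680 was at 5.81 and 4.90 CPM in K562 control, 9.09, 9.20 and 8.43 CPM in DOT1L KO, 7.85, 6.43 and 7.98 CPM in ENL KO, 0.316 and 0.312 CPM in HEL control and 1.13 and 0.823 CPM in HEL DOT1L KD. Its log2 fold changes were 0.69, 0.47 and 1.57; the ENL KO call was lost without K562 control library 2, and the HEL call without DOT1L KD library 1 or either control library. LINC00977 changed by 0.59, 0.51 and 0.92, and none of the 3 calls held against every left-out library. The first was lost without DOT1L KO library 2 or K562 control library 1 (edgeR adjusted p up to 0.0745), the second without ENL KO library 2 or 3 or either control library (up to 0.153), and the last without HEL DOT1L KD library 1 or HEL control library 1 (up to 0.175). The other 6 had mixed directions. LINC00665 was -2.82, 2.20 and 0.87, LINC00261 2.76, -3.24 and -1.79, LINC01515 1.00, -5.78 and -0.52, LINC00888 0.38, -0.61 and -0.81, LINC01138 -0.43, -0.40 and 0.30, and LINC01578 0.35, -0.26 and -0.17 in DOT1L KO, ENL KO and HEL DOT1L KD. Of these 6, LINC00261 alone kept all 3 calls whichever library was left out. The HEL call of LINC00665 was lost without either DOT1L KD library or control library 2 (lowest value 0.62), and that of LINC01515 without any 1 of the 4 HEL libraries (-0.53 to -0.50). LINC01515 in DOT1L KO was no longer called without DOT1L KO library 3 or either control library (lowest value 0.68), and LINC00888 in DOT1L KO without control library 2 (0.33). LINC01138 lost its DOT1L KO call without control library 2 (-0.39), its ENL KO call without either control library (-0.44 and -0.35) and its HEL call without DOT1L KD library 2 or control library 2 (0.23 at the lowest). LINC01578 lost its ENL KO call without DOT1L KO library 2, ENL KO library 1 or 3 or either control library (-0.33 to -0.21 over all left-out libraries), and its HEL call without DOT1L KD library 2 (-0.15). In 70 of the 213 members no comparison with a control passed, but only 22 of these were tested in all 3. Another 28 were not tested in HEL, 19 were not tested in K562 and 1 was tested in none. The matching share of all genes is not given here, so the 70 give no rate of unchanged RNAs.

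The difference between the lines in the response to DOT1L depletion was tested as an interaction in a joint fit of both tables. Of the 94 members tested in both lines, 34 passed (36.2%; 48.3% of the 11644 genes tested in both lines), 15 with the HEL change above the K562 change and 19 below it. The line goes together with the means of depletion (knockdown or knockout) and with reads or fragments as the counting unit, and these cannot be told apart. LINC00261 had an interaction of -4.54 (edgeR adjusted p = 4.43e-08), LINC01094 of -2.09 and LINC00665 of 3.70 on the log2 scale.

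Members and the genes nearest to them were set side by side. For the 31 members whose nearest tested gene of another name starts within 5 kb, the log2 fold changes of member and gene had a Pearson correlation of 0.66 in DOT1L KO, 0.81 in ENL KO and 0.86 between the knockouts. By rank (Spearman) the correlations were 0.68, 0.62 and 0.72. The 2 changes had the same sign in 18 of these 31 pairs in DOT1L KO, 24 in ENL KO and 22 between the knockouts. Where both genes of a pair passed the test, the sign was shared in 9 of 9, 4 of 4 and 9 of 11 pairs. Such pairs of genes with other names shared it in 548 of 699, 407 of 502 and 831 of 1080. At 5 to 50 kb (58 pairs) the Pearson correlations of the members were 0.35, 0.34 and 0.40, and at 50 to 500 kb (68 pairs) 0.03, 0.02 and -0.07. For genes with other names the same distances gave 0.47, 0.39 and 0.26 in DOT1L KO. Within 5 kb those genes gave 0.53 in ENL KO, 0.54 between the knockouts and 0.19 in HEL. In HEL the 20 pairs within 5 kb gave -0.18, with 9 of the same sign and 1 member passing the test, and -0.52 without the 7 overlapping pairs. Both genes of a pair come from the same libraries, and for the overlapping pairs (9 of the 31) they may share reads; without those the 5 kb value was 0.66 in DOT1L KO and 0.82 in ENL KO. This measure was added after the data were seen, and it is a description across pairs, which are not independent.

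Single pairs differed in direction and size. LINC01534 and ZNF567, a zinc finger gene, share the window printed above, and ZNF567 changed by -0.76 ± 0.19 in DOT1L KO and 1.59 ± 0.16 in ENL KO, next to -1.98 and 1.73 for LINC01534. CCNYL2, a cyclin Y-like gene that starts 3251 bases from LINC00839 in the opposite direction, changed by -2.16 ± 0.80 and 3.24 ± 0.41, next to -0.76 and 3.46. It was at 0.325 CPM in K562 control, 0.073 CPM in DOT1L KO and 3.16 CPM in ENL KO, so its DOT1L KO change rests on few counts. The DOT1L KO call of LINC00839 was lost without DOT1L KO library 2 or 3, ENL KO library 2 or 3 or either control library (edgeR adjusted p up to 0.231). BTG2, an antiproliferative gene 211 bases from LINC01136, rose by 1.03 ± 0.065 in DOT1L KO, next to 2.65 for LINC01136. FOXA2, an endoderm transcription factor, changed by 0.53 ± 0.097 in DOT1L KO and -2.79 ± 0.13 in ENL KO, next to 2.76 and -3.24 for LINC00261. COL1A1, the collagen gene 13055 bases from LINC01969, rose by 3.43 ± 0.089 in DOT1L KO, next to 3.01; LINC01136 and LINC01969 were admitted by DOT1L KO alone. ZFP14, 47485 bases from LINC00665, changed by -0.88 ± 0.27 and 0.82 ± 0.24, next to -2.82 and 2.20. TUBB2B, 31886 bases from LINC02525, rose by 1.14 ± 0.089 in DOT1L KO while LINC02525 fell by 4.64. CHD2 changed by -0.18 ± 0.059 in DOT1L KO, -0.71 ± 0.059 in ENL KO and -0.20 ± 0.036 in HEL DOT1L KD, next to 0.35, -0.26 and -0.17 for LINC01578, its cis-acting neighbour 17478 bases away. The directions of these 2 were opposite in DOT1L KO and the same in the other 2 comparisons.

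**Figure D4:**
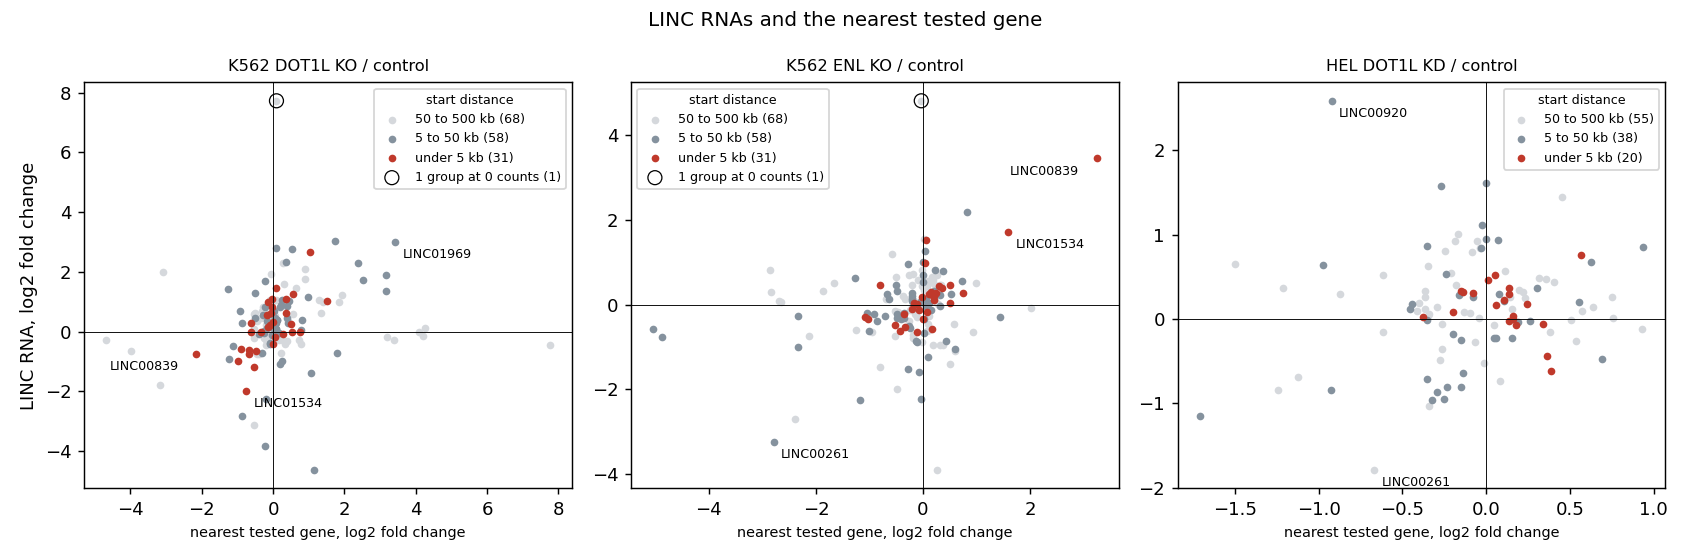
Log2 fold change of each LINC RNA (vertical) against that of its nearest tested gene of another name (horizontal) in 3 comparisons with a control, coloured by the distance between the starts. In both K562 panels the red points, pairs under 5 kb apart, have Pearson correlations of 0.66 and 0.81 over 31 pairs, of which 18 and 24 have the same sign, and the 20 red points in HEL have one of -0.18; an open circle marks LINC00881, which has 0 control counts.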

How the data were processed

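Polyadenylated RNA of 12 distinct libraries (8 K562, 4 HEL) was analysed. The authors deposited 2 tables of raw counts per gene, fragments for K562 and reads for HEL, per the file names and values, with gene position and exonic length. The submitters' processing notes name fastp 0.13.1, HISAT2 2.1.0, featureCounts 1.6.1, Bowtie2 2.3.4.1 and deepTools, and the builds hg38 and hg19, without roles; the gene positions match GRCh38. Whether counting used the strand is not given in the sources used here. The other 61 samples of the series (chromatin and nascent RNA assays) were not used here.

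CPM is the deposited count over the column total. Changes were tested on the counts with edgeR 4.0.16 in R 4.3.3 (filterByExpr with a minimum count of 10 and a total of 15, TMM scaling, quasi-likelihood test, Benjamini-Hochberg adjustment over all genes, threshold 0.05), in 1 fit of the 8 K562 libraries, 1 of the 4 HEL libraries and a joint fit for the interaction; both-line values are set side by side without normalization across tables. The edgeR tests of K562 DOT1L KO against control and of HEL DOT1L KD against control were tried on simulated data. The other comparisons, the joint fit and DESeq2 were not. The SE is the absolute log2 fold change over the square root of F. DESeq2 1.42.0, other scalings, filters, level limits, a replicate block and left-out libraries were tried as alternatives.

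Named members are the 6 largest increases and decreases per comparison that passed with libraries that did not overlap (62.2% to 76.6% of all genes tested had such libraries in the DOT1L KO against ENL KO, DOT1L KO against control and HEL comparisons, and 59.4% in ENL KO against control), those that passed in all 3 comparisons with a control, the 8 highest per kb, and members nearest the level limit or beside a gene that is described. Promoters of LINC01534 and the neighbour measures were chosen after values were seen. The members and lists were chosen with earlier results of these data known.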

Additional observations from a re-analysis of the deposited data

Results flagged for a closer look

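Among the named members tested in both lines, 14 had a response to DOT1L depletion that differed between HEL and K562 in the interaction test (HEL change minus K562 change, log2 scale; edgeR's quasi-likelihood test over all genes). Most named members were picked for large or repeated changes in these same data, so the 14 give no rate. Of all 94 members tested in both lines 36.2% passed, and of all genes tested in both lines 48.3%. The line goes together with knockdown or knockout and with reads or fragments, so these cannot be told apart. Responses in opposite directions, each past the threshold in its own line, gave LINC00665 at 3.70, LINC00261 at -4.54, LINC01515 at -1.49, LINC01094 at -2.09, LINC02604 at -1.34, LINC01138 at 0.75, LINC00888 at -1.17, LINC01578 at -0.51, LINC02001 at 1.41 and LINC00339 at -0.60. A response past the threshold in K562 and not in HEL gave LINC01534 at 1.93, LINC00839 at 0.81 and LINC00467 at -0.56. The reverse held for LINC02573, at 2.05. Left-out libraries ended the interaction call of LINC01534 (without HEL DOT1L KD library 2; adjusted p up to 0.0516 in edgeR), of LINC00839 (without any of the 4 HEL libraries, DOT1L KO library 2 or 3 or either K562 control library; adjusted p up to 0.206 in edgeR) and of LINC00467 (without HEL DOT1L KD library 1, HEL control library 2 or K562 control library 2; adjusted p up to 0.127 in edgeR).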

How the results depend on the processing

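Counts of members past the threshold stayed within 1.5 times the value reported under the other scalings, low-count filters and level limits tried, apart from the following. Requiring a change of at least 1 on the log2 scale left 52 members in DOT1L KO, 23 in ENL KO, 59 between the knockouts and 11 in HEL. Restricting K562 to the 118 members at 1 CPM in every K562 group, which tests fewer members, left 59 in DOT1L KO and 65 between the knockouts. DESeq2 called 19 members in HEL (11 higher, 8 lower), and the cause was not tested. With a replicate block, 108 members passed in DOT1L KO, 68 in ENL KO, 117 between the knockouts, 42 in HEL and 45 in the interaction. Same-numbered K562 libraries correlated at 0.053 to 0.22, not all above 0.1, so the numbers were not taken to pair the samples. Leaving out 1 library gave 74 to 106 members in DOT1L KO, 40 to 61 in ENL KO, 99 to 115 between the knockouts, 29 to 31 in HEL and 28 to 45 of all 213 in the interaction (42 with all libraries). Of 192 values of named members, 130 were past the threshold, and none reversed a call. Left-out libraries ended several of these calls, as given above. The median count over the tested members was 30 to 36 per HEL library and 36 to 83 per K562 library, which limits the precision for the lower ones.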

Other observations

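Some members lie next to each other. LINC01128 and LINC00115 on chromosome 1 start 69 bases apart in opposite directions, and LINC00667 and LINC00526 on chromosome 18 start 71 bases apart. In DOT1L KO, LINC00667 rose by 0.58 on the log2 scale (edgeR adjusted p = 8.54e-05), and LINC00526 was at 0.25 (edgeR adjusted p = 0.236). In HEL DOT1L KD, LINC01128 rose by 0.52 (edgeR adjusted p = 0.000351), and LINC00115 was at -0.16 (edgeR adjusted p = 0.736). In ENL KO, LINC00667 rose by 0.38 (edgeR adjusted p = 0.00342) and LINC00526 was at -0.12.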
